A study of Mus musculus with 8 samples.

Results

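The genes described here are 32 markers of monocytes and of the macrophages of the spleen, read in polyA RNA of B splenocytes, which are spleen B cells. They were chosen by gene symbol from a fixed list, and each gene was represented by its brightest array feature, judged by the mean of the 8 arrays. The array annotation named a feature for 30 of the 32, out of 19087 genes in all, and Csf1r and Cd68 were not analysed here. Controls were 4 wild type (wt) mice of strain C57BL/6, and lymphoma cells came from 4 C57BL/6 mice with the genotype c-myc/Cdk4(R24C), which pairs c-myc with a Cdk4 kinase that INK4 inhibitors cannot block. Each mouse gave 1 one-color array labelled with Cy3. Going by the array identifiers, wild type 1 and 2 shared slide 1 with lymphoma 1 and 2, and the other 4 arrays made up slide 2. The ages of the mice, the promoter that drives c-myc and the way B cells were separated from other spleen cells are not stated in the labels.

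Macrophages of the spleen remove aged red cells, dying lymphocytes and blood-borne particles. Those of the red pulp recycle the iron of hemoglobin, and those around the marginal zone carry scavenger receptors that face the blood. Monocytes and macrophages also carry receptors for antibody, make the complement protein C1q and hold many lysosomal proteases. In a preparation of B cells such transcripts may come from phagocytes that remain in it, and several of them, Mpeg1, Ctsb and Ctsd among them, are also made by other cells. In bulk RNA, fewer cells of a type and less RNA per cell cannot be told apart.

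Values are log2 intensities after scaling of the arrays to their 75th percentiles. Olfactory and vomeronasal receptors, 1113 features, set the background bound of an array, taken as their 95th percentile. It lay between 7.17 and 7.45, while 27 of the 30 markers were above it on all 8 arrays. All 11 measured B cell markers were above it on all arrays as well. Over the whole table, the correlation of wild type 1 averaged 0.963 against the lymphomas and 0.941 against the remaining controls. Wild type 2 had the lowest averages of the 8 arrays, 0.918 against the lymphomas and 0.935 against the remaining controls. The number of arrays limits the precision.

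Macrophage markers were lower in the lymphoma arrays. The difference between the groups, lymphoma minus wild type, was negative for 29 of the 30 measured markers, against 43.3% of all genes. Their median difference was -1.01 on the log2 scale, beside 0.06 over all genes. In limma with Benjamini-Hochberg adjustment, 9 of the 30 fell in lymphoma with an adjusted p under 0.05, where 1.27% of all genes did. These were Mpeg1, Fcgr1, C1qa, C1qb, Lyz2, Ctsd, Vcam1, Mertk and Lyve1. None rose, where 0.817% of all genes did. At an unadjusted p under 0.05, 20 markers were lower and 0 higher, beside 7.73% and 8.19% of all genes. In 13 of the 30 all lymphoma arrays lay below all wild type arrays, which held for 5.55% of all genes. In 0 did they lie above, which held for 4.43%.

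The calls rested on most of the arrays. Mpeg1 was the 1 marker of the 30 that passed whichever array was left out. It was also the only marker called without wild type 3, without wild type 4 or without lymphoma 4, where 0.278%, 0.257% and 0.257% of all genes were called lower. Fcgr1 and Mpeg1 passed without lymphoma 1 and without lymphoma 2, and these and Lgmn without lymphoma 3, while 0.341%, 0.576% and 0.398% of all genes were called lower. Leaving out wild type 2 gave 7 calls beside 0.88% of all genes, and leaving out wild type 1 gave 11 beside 3.87%.

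The processing moved the count as well. Quantile normalization left C1qb, Fcgr1, Mertk and Mpeg1, 4 calls beside 1.14% of all genes, and array weights gave 18 beside 4.02%. Averaging a gene's features gave 6 calls (1.19% of all genes), with Fcgr3 among them and Fcgr1 not. Scaling to the median gave 6 (1.34%), the deposited scaling 8 (1.58%), a floor 7 (1.22%), and trend and robust eBayes 7 (1.51%). The brighter 50% of features, with 28 of the markers in the fit, gave 9 calls beside 2.69% of the 10311 genes left. The slide as a block gave 11 (1.44%) and the replicate block 10 (1.61%). C1qb, Mertk and Mpeg1 passed in all 10 of these fits.

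**Figure D1:**
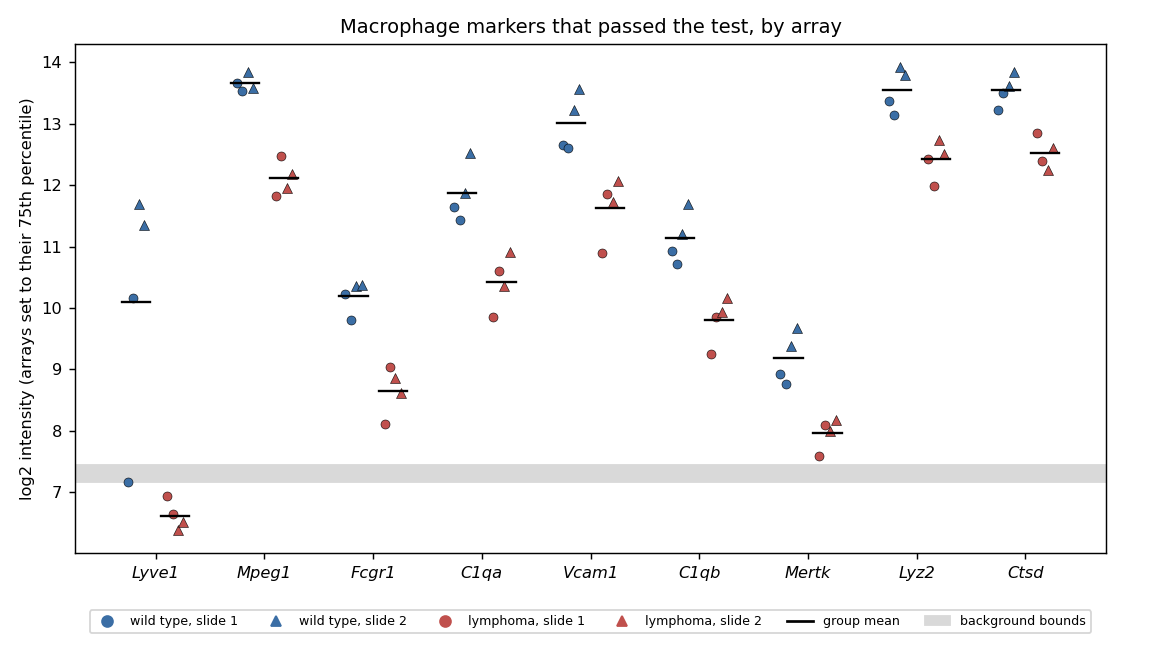
The 9 markers that passed the test, with log2 intensity (arrays set to their 75th percentile) on the y axis and 1 point per array, circles for slide 1 and triangles for slide 2. Black bars are group means and the grey band spans the background bounds of the arrays, 7.17 to 7.45. In each marker the 4 lymphoma points lie below the 4 wild type points, and for Lyve1 the point of wild type 1 lies at 7.16, in reach of the lymphoma points.

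Mpeg1, which encodes perforin-2, a pore-forming protein of phagocytes that acts on engulfed bacteria, had the lowest adjusted p of the list. Its log2 intensity was 13.67, 13.54, 13.84 and 13.59 in wild type 1 to 4 and 11.82, 12.48, 11.96 and 12.18 in lymphoma 1 to 4. The groups were separated by about a full log2 unit, and wild type 1 lay among the other controls. The means were 13.66 ± 0.13 and 12.11 ± 0.29 (SD, n = 4), a difference of -1.55 ± 0.22 (SE) or 2.92-fold, with an adjusted p of 0.00802 in limma. A dimmer feature of Mpeg1, above background on 1 of 8 arrays, had a difference of -0.05 (adjusted p 0.954), and the mean of both gave -0.80 (adjusted p 0.0465).

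Fc receptors bind antibody on particles and immune complexes. Fcgr1, the high-affinity receptor for IgG, read 10.23, 9.81, 10.37 and 10.37 in wild type 1 to 4 and 8.11, 9.03, 8.85 and 8.61 in lymphoma 1 to 4. All lymphoma values lay below all control values, and the difference was -1.54 ± 0.25 (SE), 2.91-fold, with an adjusted p of 0.016 in limma. Fcgr1 no longer passed without wild type 3 (adjusted p 0.0664), without wild type 4 (0.0676) or without lymphoma 4 (0.0713). The mean of its features gave an adjusted p of 0.103.

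Fcgr3, a low-affinity IgG receptor that activates, gave different readings on its features. The brighter one read 11.48, 12.51, 11.81 and 11.91 in wild type and 11.59, 10.70, 11.17 and 11.24 in lymphoma, so that wild type 1 lay below lymphoma 1. It did not pass, at -0.76 ± 0.27 (SE) (adjusted p 0.218). The dimmer feature read 10.85, 10.75, 11.17 and 11.65 in wild type and 9.19, 9.76, 9.68 and 9.45 in lymphoma. These groups did not overlap, and the feature passed with a difference of -1.59 ± 0.25 (SE) and the adjusted p was 0.0138 in limma. Taken as the mean of both features, Fcgr3 differed by -1.17 with an adjusted p of 0.0124.

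Fcgr4, another activating IgG receptor of mouse myeloid cells, had a difference of -0.73 ± 0.27 (SE) (adjusted p 0.228). Its lymphoma arrays ranged from 8.85 to 9.77 and its wild type arrays from 9.43 to 10.26, an overlap that came from slide 1. Tyrobp, the adaptor DAP12 that passes signals from several myeloid and NK cell receptors, was the only marker with a positive difference, 0.14 ± 0.35 (SE) (adjusted p 0.896). It read 13.12, 12.17, 12.77 and 12.75 in wild type and 12.63, 11.91, 13.46 and 13.37 in lymphoma, with the 2 highest values in lymphoma 3 and 4. Fcer1g, the common gamma chain that Fc receptors need at the cell surface, is outside the list of 32 and stood at -1.73 ± 0.33 (SE) (adjusted p 0.0279).

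C1q, the recognition protein of the classical complement pathway, is assembled from 3 kinds of chain, and macrophages are a main source of it. C1qa read 11.65, 11.43, 11.87 and 12.53 in wild type 1 to 4 and 9.85, 10.60, 10.35 and 10.91 in lymphoma 1 to 4. It was 2.71-fold lower, with a difference of -1.44 ± 0.30 (SE) and an adjusted p of 0.0373 in limma. C1qb read 10.93, 10.71, 11.21 and 11.70 in wild type and 9.26, 9.86, 9.93 and 10.17 in lymphoma, a difference of -1.33 ± 0.28 (SE) (adjusted p 0.0378). The groups did not overlap in either gene, and lymphoma 1 was the lowest array and wild type 4 the highest in both.

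C1qc, the gene of the remaining chain, read 11.06, 10.82, 13.36 and 12.15 in wild type and 10.49, 10.86, 11.75 and 11.87 in lymphoma. Arrays of slide 2 were higher than those of slide 1 in both groups, and the groups overlapped. The difference was -0.60 ± 0.52 (SE) (adjusted p 0.638), and leaving out wild type 3 brought it to -0.10. With the slide as a second term, C1qc was 1.48 higher on slide 2 than on slide 1 (adjusted p 0.351).

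Lysozyme cleaves bacterial cell walls. Lyz2, its main gene in macrophages, is also expressed by granulocytes, and it read 13.36, 13.14, 13.92 and 13.79 in wild type and 12.43, 11.99, 12.74 and 12.51 in lymphoma. The groups did not overlap, and the difference was -1.14 ± 0.25 (SE), 2.20-fold, with an adjusted p of 0.0472 in limma. The call ended with the median (adjusted p 0.0627), quantile normalization (0.0835) and trend and robust eBayes (0.0673). A dimmer feature of Lyz2 differed by -0.40 (adjusted p 0.717), and the mean of both by -0.77 (adjusted p 0.221). Lyz1, a close relative best known from Paneth cells of the gut, overlapped between the groups at -0.87 ± 0.45 (SE) (adjusted p 0.412). Lyz1 and Lyz2 are near-identical genes whose transcripts an array feature may not separate. Cd14, the coreceptor for bacterial lipopolysaccharide, ranged from 8.76 to 10.42 in wild type and from 8.37 to 8.77 in lymphoma. The highest lymphoma array and the lowest control array were nearly equal, and the difference was -0.99 ± 0.31 (SE) (adjusted p 0.154).

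Lyve1, a hyaluronan receptor of lymphatic endothelium and of some tissue macrophages, had the largest difference of the list. It read 7.16, 10.16, 11.69 and 11.35 in wild type 1 to 4 and 6.94, 6.64, 6.39 and 6.51 in lymphoma 1 to 4. All lymphoma arrays and wild type 1 were below their background bounds, and the other 3 controls were clearly above. Lyve1 was therefore at least 7.16-fold lower in lymphoma, measured against the bound, with a fitted difference of -3.47 ± 0.76 (SE) and an adjusted p of 0.0467 in limma. The group means were 10.09 ± 2.06 and 6.62 ± 0.24 (SD, n = 4). Without wild type 1 the fitted difference was -4.45 (adjusted p 4.32e-05), and without any other single array the adjusted p lay above 0.05, up to 0.149. The other feature of Lyve1 was at background on all arrays and differed by -0.02 (adjusted p 0.99). The call also ended with the deposited scaling (adjusted p 0.0503), the median (0.0508), quantile normalization (0.0555), the floor (0.0564), trend and robust eBayes (0.189) and the mean of its features (-1.74, adjusted p 0.0726).

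The scavenger receptors gave 1 call, that of Lyve1, among 7 genes, beside 1.27% of all genes called lower. All 7 differences were negative, against 43.3% of all genes, but Msr1 and Siglec1 were each above background on 1 array only. Within slide 1 the difference was negative in 4 of the 7, beside 42.9% of all genes. Cd5l, a secreted protein of tissue macrophages also called AIM, read 12.08, 11.80, 13.85 and 13.44 in wild type and 10.59, 11.35, 12.19 and 11.49 in lymphoma. Lymphoma 3 lay above the slide 1 controls, and the difference was -1.39 ± 0.47 (SE) (adjusted p 0.183). With the slide as a block Cd5l passed with an adjusted p of 0.0409, and with the replicate block at 0.0397. Cd163, the receptor for hemoglobin bound to haptoglobin, differed by -0.76 ± 0.39 (SE) (adjusted p 0.407), with wild type 2 at 8.07 and the other controls between 9.60 and 9.90. Mrc1, the mannose receptor, differed by -0.69 ± 0.42 (SE) (adjusted p 0.48), and lymphoma 4 was the highest of its 8 arrays at 9.59.

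Marco, a scavenger receptor of marginal zone macrophages, went in opposite directions on the slides. It read 9.98 and 10.27 in wild type 1 and 2 and 11.31 and 10.76 in lymphoma 1 and 2, which share slide 1. On slide 2 it read 11.53 and 11.25 in wild type 3 and 4 and 8.72 and 9.08 in lymphoma 3 and 4. The difference was 0.91 within slide 1 and -2.49 within slide 2, and the interaction of group and slide had an unadjusted p of 3.33e-05 in limma and an adjusted p of 0.201. Over all arrays Marco differed by -0.79 ± 0.56 (SE) (adjusted p 0.557). Msr1, scavenger receptor A, was at background on 7 of 8 arrays, as was Siglec1, the sialoadhesin of metallophilic macrophages, so that neither gave a fold.

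Receptors for the uptake of dying cells did not move together. Mertk, a receptor tyrosine kinase that recognises apoptotic cells through bridging proteins, read 8.93, 8.77, 9.39 and 9.67 in wild type and 7.59, 8.10, 7.99 and 8.18 in lymphoma. The groups did not overlap, and the difference was -1.22 ± 0.25 (SE), 2.34-fold, with an adjusted p of 0.0374 in limma. Axl, a kinase of the same family, ranged from 7.50 to 8.80 in wild type and from 7.27 to 8.80 in lymphoma, a difference of -0.05 ± 0.35 (SE) (adjusted p 0.969). Timd4, a receptor for phosphatidylserine, differed by -0.06 ± 0.24 (SE) (adjusted p 0.936). Both overlapped fully between the groups and were above background on all arrays.

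Red pulp macrophages depend on the transcription factor Spic, take up red cells, open heme with heme oxygenase and export the iron through ferroportin. Of 5 such genes, Vcam1 passed the test and the other 4 did not, beside 1.27% of all genes called lower. All 5 were at least 2-fold lower, a share that was not counted over all genes. In limma all 5 were lower at an unadjusted p under 0.05, beside 7.73% of all genes. Vcam1, an adhesion receptor of red pulp macrophages that endothelial and stromal cells also carry, read 12.65, 12.61, 13.23 and 13.57 in wild type and 10.89, 11.86, 11.72 and 12.06 in lymphoma. The groups did not overlap, and the difference was -1.38 ± 0.31 (SE) (adjusted p 0.0485 in limma). It passed without wild type 1 and in no other fit that left out an array. The call also ended with the median (adjusted p 0.0528), quantile normalization (0.0841) and the floor (0.0528). Its dimmer features differed by -0.67 (adjusted p 0.386) and 0.55 (adjusted p 0.542), the latter above background on 1 array, and the mean of all 3 gave -0.50 (adjusted p 0.382).

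Slc40a1, the iron exporter ferroportin, read 12.73, 11.60, 13.52 and 13.62 in wild type and 10.48, 11.45, 11.54 and 11.99 in lymphoma. Wild type 2 lay below lymphoma 4, and the difference was -1.501 ± 0.44 (SE) (adjusted p 0.128). With the slide as a block the adjusted p was 0.0444. Hmox1, heme oxygenase 1, read 13.23, 12.06, 14.11 and 14.55 in wild type and 11.39, 11.96, 11.80 and 12.97 in lymphoma, a difference of -1.46 ± 0.50 (SE) (adjusted p 0.188). Wild type 2 was again the lowest control and lymphoma 4 the highest lymphoma.

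Spic differed by -1.44 ± 0.50 (SE) (adjusted p 0.195), and wild type 2, at 10.43, lay under lymphoma 2 at 11.16 and lymphoma 4 at 11.06. Its other feature differed by -1.20 (adjusted p 0.408). Slc11a1, the phagosomal metal transporter NRAMP1, ranged from 9.84 to 11.67 in wild type and from 8.82 to 9.75 in lymphoma. Its groups did not overlap, and it differed by -1.42 ± 0.40 (SE) without passing (adjusted p 0.108).

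Lysosomal proteases and apolipoprotein E were separated between the groups in all 4 genes, with lymphoma lower, which held for 5.55% of all genes. Of these 4, 1 was called, beside 1.27% of all genes called lower. Ctsd, the aspartic protease cathepsin D, read 13.22, 13.49, 13.62 and 13.85 in wild type and 12.85, 12.39, 12.24 and 12.61 in lymphoma, a difference of -1.02 ± 0.23 (SE), 2.03-fold (adjusted p 0.0472). Its second feature differed by -0.998 (adjusted p 0.0508). The call ended with the slide as a block (adjusted p 0.052), the replicate block (0.0733), quantile normalization (0.0729) and trend and robust eBayes (0.0874). Lgmn, the asparaginyl protease legumain, read 12.30, 12.37, 13.18 and 12.92 in wild type and 10.43, 10.73, 12.19 and 11.34 in lymphoma. Lymphoma 3 came close to the slide 1 controls, and the difference was -1.52 ± 0.37 (SE) (adjusted p 0.0657). Lgmn passed with the slide as a block (adjusted p 0.0208), the replicate block (0.0186), array weights (0.0161) and trend and robust eBayes (0.0426).

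Ctsb, the cysteine protease cathepsin B, had narrow groups, 14.95 ± 0.11 in wild type and 14.22 ± 0.16 in lymphoma (SD, n = 4), and a difference of -0.73 ± 0.20 (SE) (adjusted p 0.097). Apoe, the lipid carrier that macrophages secrete, read 14.90, 14.79, 15.38 and 15.70 in wild type and 14.74, 14.31, 13.80 and 14.04 in lymphoma. Lymphoma 1 lay just under wild type 2, and the difference was -0.97 ± 0.28 (SE) (adjusted p 0.117). All 10 features of Apoe were lower in lymphoma, by -0.68 to -1.02, and none passed (adjusted p 0.0665 to 0.394). The brightest one reached 80% of the highest intensity of the array on 2 arrays.

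**Figure D2:**
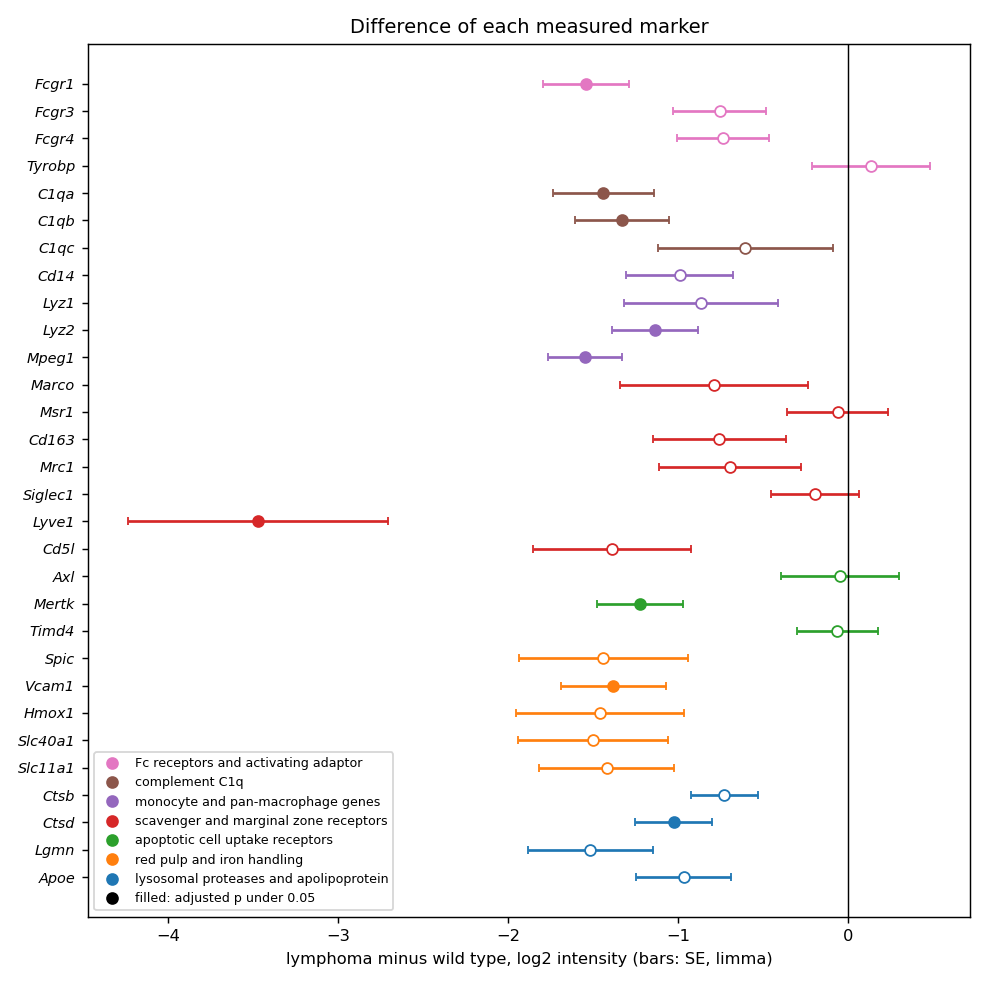
Difference between the groups (lymphoma minus wild type, log2 intensity) on the x axis for each of the 30 measured markers, ordered and colored by role, with SE bars from limma. Filled points passed an adjusted p of 0.05. All but Tyrobp, at 0.14, lie below 0, and Lyve1 lies farthest out at -3.47.

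The promoters of 5 of these genes are shown because their products work side by side, as the C1q chains and the lysosomal proteases do, and Fcgr1 is shown as the called Fc receptor. Each sequence is the RefSeq window of GRCm38.p6 from 250 bases before to 50 after a transcript start, written 5′ to 3′ on the gene's strand. Capitals mark GAGGAA in Fcgr1 and C1qb, GAGGAAGT in C1qc and GTCACGTG in Ctsd and Lgmn, or the reverse complement of these. GAGGAA is the core of sites for the myeloid factor PU.1 and its relative SPIC, GAGGAAGT is a longer form that contains it, and GTCACGTG is part of the element through which TFEB acts on lysosomal genes.
Fcgr1 promoter, chr3:96293920-96294219, minus strand: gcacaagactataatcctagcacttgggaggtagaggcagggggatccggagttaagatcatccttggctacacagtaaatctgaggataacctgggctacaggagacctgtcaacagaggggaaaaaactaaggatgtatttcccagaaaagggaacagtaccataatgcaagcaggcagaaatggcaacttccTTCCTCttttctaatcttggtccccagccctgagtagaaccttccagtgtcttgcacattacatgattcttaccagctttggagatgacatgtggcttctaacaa
C1qb promoter, chr4:136886151-136886450, minus strand: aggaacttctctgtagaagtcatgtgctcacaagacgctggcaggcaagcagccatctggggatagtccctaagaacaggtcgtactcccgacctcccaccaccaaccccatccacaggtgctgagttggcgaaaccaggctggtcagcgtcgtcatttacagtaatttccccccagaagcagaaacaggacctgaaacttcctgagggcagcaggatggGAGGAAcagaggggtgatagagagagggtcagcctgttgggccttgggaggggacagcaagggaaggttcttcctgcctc
C1qc promoter, chr4:136892865-136893164, minus strand: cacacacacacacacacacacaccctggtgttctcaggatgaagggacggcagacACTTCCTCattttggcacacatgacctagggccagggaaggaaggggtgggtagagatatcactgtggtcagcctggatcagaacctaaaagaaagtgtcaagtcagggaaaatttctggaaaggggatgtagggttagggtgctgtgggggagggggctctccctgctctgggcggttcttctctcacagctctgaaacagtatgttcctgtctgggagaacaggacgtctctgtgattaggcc
Ctsd promoter, chr7:142387778-142388077, minus strand: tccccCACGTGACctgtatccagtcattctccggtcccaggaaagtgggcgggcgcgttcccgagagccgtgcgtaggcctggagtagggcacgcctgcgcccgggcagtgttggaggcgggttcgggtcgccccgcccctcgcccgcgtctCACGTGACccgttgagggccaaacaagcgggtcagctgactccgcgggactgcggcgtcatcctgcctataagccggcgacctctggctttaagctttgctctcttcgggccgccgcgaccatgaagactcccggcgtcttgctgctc
Lgmn promoter, chr12:102439043-102439342, minus strand: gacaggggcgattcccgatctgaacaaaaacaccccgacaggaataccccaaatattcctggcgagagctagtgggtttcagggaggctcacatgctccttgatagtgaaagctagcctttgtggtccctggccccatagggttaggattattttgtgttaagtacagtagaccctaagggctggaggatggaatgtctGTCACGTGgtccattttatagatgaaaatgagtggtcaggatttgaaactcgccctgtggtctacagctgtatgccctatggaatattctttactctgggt
A usable promoter window was matched by symbol for 20 of the 30 markers. GAGGAA, on either strand, was in the window of 11 of the 20, against 31.3% of 27025 genes. GAGGAAGT was in 2 of the 20, C1qc and Fcgr4, against 3.69% of genes, and GTCACGTG was in 2, Ctsd and Lgmn, against 2.55%. TGANTCA, the AP-1 element, was in 0 of the 20, against 8.97%. Among the 6 called markers with a promoter, GAGGAA was in 2 and GTCACGTG in 1. A match is a description of these letters and does not show binding.

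The markers also varied within the groups. The median deviation of the 30 markers from their own means over all arrays was 0.33, -0.02, 0.77 and 0.92 in wild type 1 to 4 and -1.01, -0.47, -0.57 and -0.36 in lymphoma 1 to 4. All 4 lymphoma arrays lay below all 4 controls in this measure, and the controls of slide 2 lay above those of slide 1. Over all genes the same measure stayed between -0.13 and 0.09. The summed linear intensity of the 30 features ranged from 138569 to 243667 in wild type and from 88234 to 104601 in lymphoma. Much of this came from Ctsb, Ctsd, Lgmn and Apoe. Those 4 features alone summed to between 74000 and 107916 in wild type and between 40180 and 56175 in lymphoma.

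Controls of slide 2 exceeded controls of slide 1 in 29 of the 30 markers, by a median of 0.69. Over all genes they did so in 44.6%, and the median was -0.07. With slide as a second term in limma, 11 of the 30 markers differed between slides at an unadjusted p under 0.05, beside 12.6% of all genes. After adjustment 0 did, beside 0.00524% of all genes, and the lowest adjusted p of a marker was 0.351. Slide and mouse cannot be told apart here, since each mouse was on 1 slide. Within slide 1 the difference between the groups was negative in 25 of the 30, with a median of -0.82, beside 42.9% of all genes. Within slide 2 it was negative in 28, with a median of -1.42, beside 49.1% of all genes.

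Within slide 1 limma called 0 markers, and it called 0% of all genes lower there. Within slide 2 it called 16 lower, beside 3.28% of all genes. The 9 called markers were lower in lymphoma within both slides. As their groups did not overlap over all arrays, this direction was fixed in advance. The differences lay between -0.74 for Ctsd and -1.87 for Lyve1 on slide 1. On slide 2 they lay between -1.23 for Lyz2 and -5.07 for Lyve1. The interaction of group and slide had an unadjusted p under 0.05 in 6 of the 30 markers, beside 7.68% of all genes. After adjustment it passed in 0 markers and in 0% of all genes.

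**Figure D3:**
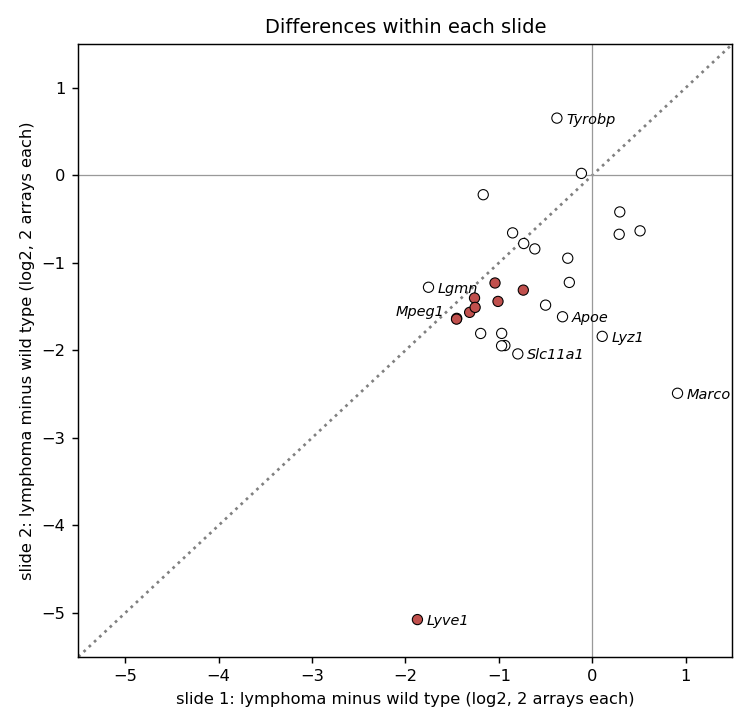
Difference between the groups within slide 1 (x axis) and within slide 2 (y axis), in log2 intensity with 2 arrays of each group per slide, 1 point per marker. Red points are the 9 called markers, and the dotted line marks equal differences. Marco lies at 0.91 on slide 1 and -2.49 on slide 2, and Lyve1 at -1.87 and -5.07.

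In 18 of the 30 markers wild type 1 was nearer to the mean of the other controls than to the lymphoma mean, which held for 42.6% of all genes. Wild type 2 was the lowest control for C1qa, C1qb, C1qc, Fcgr1, Cd163, Spic, Hmox1, Slc40a1 and Slc11a1, among others.

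In 12 of the 30 markers the array carried several features, which gave 22 besides the brightest ones. Of these, 13 were above background on all arrays, and all 13 were lower in lymphoma, 9 of them features of Apoe. Over all 22, 18 were lower, 1 passed the test, the dimmer feature of Fcgr3, and 4 were at background on all 8 arrays.

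Among 37 measured phagocyte genes outside the list of 32, 4 fell in lymphoma, 0 rose and the median difference was -0.36. By the same test 1.27% of all genes fell and 0.817% rose, with a median difference of 0.06. Tgfbi, a matrix protein secreted by macrophages, read 10.56, 10.76, 11.42 and 11.68 in wild type and 8.44, 9.33, 9.22 and 9.07 in lymphoma. Its groups lay more than 1 log2 unit apart, and it differed by -2.09 ± 0.30 (SE), 4.26-fold (adjusted p 0.00832). Tgfbi passed whichever array was left out. Fcer1g followed, and then Treml4, a receptor of splenic macrophages and dendritic cells in the mouse, at -1.71 ± 0.34 (SE) (adjusted p 0.0334).

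Adgre4, a myeloid adhesion receptor related to F4/80, differed by -1.31 ± 0.23 (SE) (adjusted p 0.0204). Adgre1, which encodes F4/80 itself and was picked out after its values were seen, differed by -1.16 ± 0.40 (SE) (adjusted p 0.199). At an unadjusted p under 0.05, 8 of the 37 were lower and 2 higher, beside 7.73% and 8.19% of all genes. The most positive of the 37 was Itgam, which encodes CD11b, at 1.22 (adjusted p 0.105). It ranged from 6.27 to 8.10 in wild type, with 2 controls above background, and from 8.37 to 8.73 in lymphoma. In 4 of the 37 all lymphoma arrays lay below all controls and in 1, Itgam, above, beside 5.55% and 4.43% of all genes.

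Markers of other blood cells were read beside these. Of 15 granulocyte genes 1 fell, S100a8, a calcium-binding protein abundant in neutrophils and monocytes, by 2.39 on the log2 scale (adjusted p 0.0133). Over all genes 1.27% were called lower. The difference was negative in 13 of the 15 granulocyte genes, against 43.3% of all genes. In limma 7 were lower at an unadjusted p under 0.05 and 0 higher, beside 7.73% and 8.19% of all genes. In 6 all lymphoma arrays lay below all controls, beside 5.55% of all genes. The summed linear intensity of that list ranged from 8563 to 20242 in wild type and from 2568 to 6281 in lymphoma, without overlap, while 5 of its genes, among them Elane, Mmp8 and Cd177, were at background on all arrays. None of the 8 erythroid genes passed, and Hba-a1, an alpha globin, had the largest difference at -1.44 (adjusted p 0.268). The difference was negative in 7 of the 8, against 43.3% of all genes. In limma 4 were lower at an unadjusted p under 0.05 and 0 higher, beside 7.73% and 8.19% of all genes. In 0 did all lymphoma arrays lie below all controls, beside 5.55% of all genes. The summed intensity of the erythroid list lay between 3015 and 18512 in wild type and between 2196 and 5244 in lymphoma. The part of granulocytes and red cells in the fall of the macrophage markers was not tested.

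None of the 11 dendritic cell genes passed, but 4 of them were at background on all arrays and only 3 above it on all. Itgax, which encodes CD11c, led the dendritic cell genes at -1.01 (adjusted p 0.261). None passed among the 13 T and NK cell genes, where Cd8b1, a chain of the CD8 coreceptor, stood at 2.67 (adjusted p 0.188) with wild type 1 at 13.27 and the other controls between 8.26 and 8.59. None of the 12 stromal and endothelial genes passed, and 7 of them were at background on all arrays, with Pdgfrb at 1.13 (adjusted p 0.499). Lymphoma 2 read 10.52 for Pdgfrb and the other 7 arrays 6.36 to 7.33, and without lymphoma 2 the difference was 0.20. Of 11 B cell genes none passed. Vpreb3, a chaperone of the B cell receptor, came closest at -2.87 (adjusted p 0.0516). The summed intensity of the B cell list overlapped, from 221402 to 315040 in wild type and from 208296 to 272079 in lymphoma. Cd79b, Ms4a1 and Blnk, bright features of that sum, reached 80% of the highest intensity of the array on 7, 5 and 7 arrays. So close to the ceiling, the sum may not show a change.

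**Figure D4:**
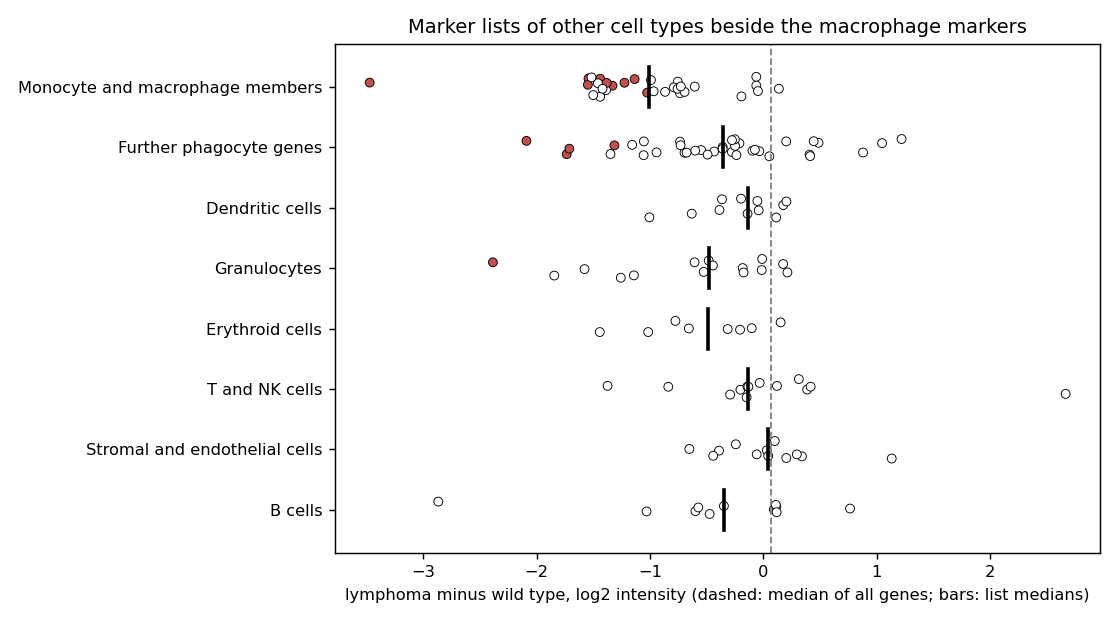
Difference between the groups (lymphoma minus wild type, log2 intensity) for each gene of the macrophage markers and of 7 further lists, 1 point per gene, red where the adjusted p was under 0.05. Black bars are list medians, -1.01 for the macrophage markers, and the dashed line is the median of all genes at 0.06.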

How the data were processed

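Messenger RNA of B splenocytes from 8 mice was measured on 1-color Agilent arrays, with 0.5 µg of RNA per array per the labels. The authors deposited log2 intensities for 45220 features. The scanner, background correction and normalization were not given in the sources used here. The platform annotation listed 33709 features, of which 56 had several gene symbols and were not named. Groups came from the sample labels and slides from the array identifiers.

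Arrays were scaled to their 75th percentiles over listed features. The group was the only term in lmFit and eBayes (limma version 3.58.1 in R version 4.3.3). Tests were two-sided, p-values were adjusted by Benjamini-Hochberg over all listed features, and dim ones were kept. A call is an adjusted p under 0.05. The fit was tested on simulated data. The 8 mice are separate per the series design, so p values use the spread between mice. Every listed marker was to be named or counted. Further lists name up to 3 called genes by size of change, and 1 that goes the other way, or the largest difference where none was called. Adgre4 falls outside that rule. Members, lists and the background bound were chosen with earlier results of these data known. A gene at background in all lymphoma arrays has a fold against the mean of the higher of bound and value.

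Alternatives were the deposited scaling, the median, quantile normalization, a filter on the dimmer 50%, a floor at the 5th percentile, trend and robust eBayes, array weights, slide or replicate number as a block, single slides, the mean of features and leaving out each array. Promoters are from RefSeq, GRCm38.p6.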

Additional observations from a re-analysis of the deposited data

Results flagged for a closer look

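Among 60 groups of 4 arrays, 1 held an array far from the others, a rate below the 1 in 20 that chance gives. Cd163 in wild type 2 read 8.07, while the other controls lay between 9.60 and 9.90. The gap was 0.835 of the range of the group, above Dixon's critical value for 4 samples. Without wild type 2 the difference of Cd163 was -1.18 (adjusted p 0.073 in limma).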

How the results depend on the processing

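The count of 9 markers lower in lymphoma became 4 with quantile normalization, 18 with array weights, 0 within slide 1 alone and 16 within slide 2 alone. Within slide 1 alone 10 were lower and 1 higher in limma at an unadjusted p under 0.05, shares that were not counted over all genes. The count of calls ranged from 1 to 11 when 1 array was left out, and from 6 to 11 with the other alternatives. The cause was not tested. Single slides and fits without an array also hold fewer arrays. No marker was called higher in any alternative. With the replicate block 10 markers passed. The numbers share no stated litter or day, so same-numbered arrays are not treated as pairs. Across features their deviations correlated at 0.18, -0.04, 0.13 and -0.02 for numbers 1 to 4. Wild type and lymphoma arrays of different numbers correlated between -0.15 and 0.08. All 9 called markers kept a negative difference in each alternative. They were chosen for a fall on these same arrays, so this is no separate support. Over the refits of these 9, calls held in 102 cases and ended in 78. Among the other 21 markers, 28 refits gained a call and 19 changed sign. Within slide 1 alone Tyrobp was -0.38, Lyz1 0.11, Marco 0.91, Msr1 0.51, Siglec1 0.29 and Timd4 0.29, and within slide 2 alone Axl was 0.0218. The mean of its features gave Msr1 0.19. Leaving out 1 array moved Tyrobp between -0.0685 and 0.45, Msr1 between -0.36 and 0.10, Siglec1 between -0.32 and 0.0291, Axl between -0.28 and 0.23 and Timd4 between -0.20 and 0.0526. Msr1 and Siglec1 lie near background, where differences carry little signal.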
